A study of Mus musculus with 8 samples.

Results

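Heat shock proteins and related chaperones were followed as 10 named genes in pressure-loaded mouse ventricles, divided by role into 5 stress-inducible members (Hspa1a, Hspa1b, Dnajb1, Hspb1 and Hsp90aa1) and 5 members that heart cells also make without stress or that serve a compartment (Hspa8, Cryab, Hspb7, Hspa5 and Hspd1). The genes were taken by name and not by a threshold on their values, but earlier results of these data were known. All 10 had at least 1 probe set annotated to a single gene symbol, 27 in all, and each gene was read from the one whose average signal was greatest. All 10 also passed the level filter of the test, a log2 value above 5 in at least 4 arrays, as did 9607 of 18193 genes on the array.

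Chaperones bind unfolded or partly folded proteins and help them to reach or regain their shape. When misfolded proteins accumulate in the cytosol, the transcription factor HSF1 binds heat shock elements and raises the transcription of inducible chaperones. Unfolded proteins in the endoplasmic reticulum act through a separate set of sensors, and mitochondria keep chaperones of their own. Heart muscle carries a large standing stock of small heat shock proteins, which protect desmin, titin and other filaments of the contracting cell.

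The 8 hearts came from male FVB mice of 8 to 12 weeks, each taken 1 week after banding of the ascending aorta, which raises the load on the left ventricle. In 4 mice a CHF1/Hey2 transgene was driven by the mlc2v promoter, which is active in ventricular muscle cells, and 4 mice were wild type, with 1 Affymetrix mouse expression array per mouse. Both groups were banded, so the values do not show what banding itself did to chaperone transcripts. In whole ventricle, fewer cells of a type and less RNA per cell cannot be told apart.

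Ventricular muscle markers were present in every array, with 7 of 7 at a log2 value of 13.22 or more, while 4 of 4 skeletal muscle markers and 3 of 3 lymphocyte markers with a probe set lay below 5 in all arrays. For Hey2 the arrays labelled transgenic averaged 5.96 ± 0.24 and the wild-type arrays 6.07 ± 0.47 (SD over 4 arrays), so it did not mark the transgenic label. Whether its probe set reads the transgene is not given in the labels. Transgenic replicate 2 stood apart from the rest (r of 0.788 to 0.840 with the other arrays across the 9607 genes, which are not independent), and 37.2% of its genes were more than 2-fold away from the other arrays' median. In transgenic replicate 3 that share was 9.27%, and in the other 6 arrays it was at most 1.55%. Member differences are also given without these arrays.

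Promoter windows were searched for the letters of elements through which inducible and compartment chaperones are known to be switched on. The RefSeq table of the GRCm38.p6 build held windows for 7 of the 10 members, each running from 250 bases before to 50 bases after a transcription start. The heat shock element was searched as GAANNTTC or TTCNNGAA, which each read the same on both strands, and 15.1% of all 32851 windows in the table hold at least 1 match. Hspa1a and Hspa1b are shown because, of the members, their transcripts varied most among mice, and because their windows differ at only 4 of 300 positions. These are C44T, T47C, T249G and C276T, counted from 1 at the 5′ end of the window, with the base of Hspa1a first and that of Hspa1b last. Capitals mark the match to these letters, whose first base lies at -104 from the start in both genes. The windows are chr17:34972107-34972406 and chr17:34959189-34959488 on the minus strand, printed 5′ to 3′ in the direction of transcription.
Hspa1a: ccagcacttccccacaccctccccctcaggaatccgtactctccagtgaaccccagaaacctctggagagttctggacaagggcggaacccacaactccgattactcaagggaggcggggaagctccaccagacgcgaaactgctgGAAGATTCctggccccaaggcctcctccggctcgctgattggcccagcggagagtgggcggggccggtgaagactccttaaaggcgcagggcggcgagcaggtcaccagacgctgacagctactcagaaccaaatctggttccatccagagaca
Hspa1b: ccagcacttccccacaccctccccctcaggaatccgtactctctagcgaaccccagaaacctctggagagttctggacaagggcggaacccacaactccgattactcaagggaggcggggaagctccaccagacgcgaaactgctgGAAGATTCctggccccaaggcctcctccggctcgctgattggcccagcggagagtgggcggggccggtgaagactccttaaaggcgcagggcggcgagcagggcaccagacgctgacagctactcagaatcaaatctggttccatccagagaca

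Hspb1 is shown as a gene whose window holds 2 such matches, in capitals, while its transcript varied less among mice than those of Hspa1a and Hspa1b. The window is chr5:135887669-135887968 on the plus strand.
Hspb1: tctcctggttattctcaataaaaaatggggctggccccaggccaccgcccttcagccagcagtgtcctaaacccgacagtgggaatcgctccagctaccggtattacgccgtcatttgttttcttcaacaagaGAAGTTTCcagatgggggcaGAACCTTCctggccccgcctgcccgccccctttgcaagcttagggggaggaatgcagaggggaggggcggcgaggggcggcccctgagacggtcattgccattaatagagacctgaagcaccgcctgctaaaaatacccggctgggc

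For Hspd1 the table holds windows at 2 starts. The one shown, chr1:55087883-55088182 on the minus strand, carries 3 overlapping matches in a single capitalised run. They include heat shock elements of 3 units, GAA and TTC in turn with 2 bases between units, which occur in 0.603% of all windows. In the RefSeq order Hspd1 lies next to Hspe1, the gene of its partner chaperonin.
Hspd1: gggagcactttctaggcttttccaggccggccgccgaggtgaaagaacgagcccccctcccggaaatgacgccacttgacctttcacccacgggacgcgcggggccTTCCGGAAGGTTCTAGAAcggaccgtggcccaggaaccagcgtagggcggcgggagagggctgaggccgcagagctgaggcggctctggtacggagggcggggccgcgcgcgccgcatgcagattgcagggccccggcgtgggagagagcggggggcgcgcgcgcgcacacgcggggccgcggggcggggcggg

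Hspa5 has no heat shock element in its window, chr2:34771840-34772139 on the plus strand. It holds the endoplasmic reticulum stress element in capitals, CCAAT and then CCACG with 9 bases between them, searched on both strands and found in 0.119% of all windows.
Hspa5: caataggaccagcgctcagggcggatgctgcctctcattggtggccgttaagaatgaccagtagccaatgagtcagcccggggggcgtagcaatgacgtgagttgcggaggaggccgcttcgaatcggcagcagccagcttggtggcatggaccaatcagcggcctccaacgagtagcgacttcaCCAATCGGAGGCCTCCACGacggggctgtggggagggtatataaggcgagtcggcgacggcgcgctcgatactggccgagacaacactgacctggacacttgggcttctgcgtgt

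No heat shock element of these letters was found in the windows of Dnajb1, which has 2 starts in the table, or of Hspb7. Matches are letters in a window and do not show binding.

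The inducible HSP70 transcripts ranged widely from mouse to mouse in both groups, and neither passed the test between groups. Hspa1a, which encodes a cytosolic HSP70 made under stress, read 6.54, 8.51, 10.49 and 8.95 on the log2 scale in transgenic replicates 1 to 4. In wild-type replicates 1 to 4 the Hspa1a values were 7.59, 11.24, 9.08 and 7.70. The highest value was in a wild-type heart and the next in a transgenic heart, and the lowest was transgenic, so the groups overlapped throughout. Group means of Hspa1a were 8.62 ± 1.63 and 8.90 ± 1.70 (SD over 4 arrays), and transgenic minus wild type was -0.28 (SE 0.99, 95% confidence interval -2.54 to 1.98; limma adjusted p = 0.918; two-sided exact permutation p = 0.857). With 4 arrays a group this exact p cannot go below 0.0286.

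Hspa1b, the neighbouring gene of a nearly identical protein, gave 8.63, 10.14, 12.75 and 10.87 in transgenic replicates 1 to 4 and 9.51, 13.42, 10.02 and 9.43 in wild-type replicates 1 to 4. Wild-type replicate 2 and transgenic replicate 3 were again the highest, and transgenic replicate 1 the lowest. Between the lowest and the highest heart the level of Hspa1b differed 27.8-fold and that of Hspa1a 26.0-fold, as far as this array scale can be read as linear. The group means of Hspa1b were 10.60 ± 1.71 and 10.60 ± 1.90 (SD, n = 4 each), with a difference of -0.0012 (SE 1.08, interval -2.46 to 2.46; limma adjusted p = 1.00; exact permutation p = 1.00). Without wild-type replicate 2 the differences of Hspa1a and Hspa1b were 0.50 and 0.94, and without transgenic replicates 2 and 3 they were -1.16 and -0.85, so their sign rested on single hearts.

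Signals of the HSP70 copies cannot be assigned with certainty. The kept probe set of Hspa1b has the suffix that the manufacturer gives to probes shared with other transcripts, and the sequences of the 2 genes are close enough for one to be read by the probes of the other. The 2 other probe sets of Hspa1b ranked wild-type replicate 2 highest and transgenic replicate 3 next as well, with r of 0.993 and 0.996 to the kept one over the 8 arrays, and their group differences were 0.05 and 0.11.

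Dnajb1, the HSP40 partner that stimulates the ATPase of HSP70, varied in the same hearts. It read 8.93, 10.07, 10.52 and 9.59 in transgenic replicates 1 to 4 and 9.19, 11.10, 9.10 and 9.42 in the wild-type ones. The highest heart was once more wild-type replicate 2, which stood 1.69 above the median of the other 7 arrays. Its group means were 9.78 ± 0.68 and 9.70 ± 0.94 (SD, n = 4 each), and the difference of 0.07 (SE 0.50, interval -1.07 to 1.22; limma adjusted p = 0.959; exact permutation p = 0.914) turned to -0.02 without transgenic replicate 2 and to -0.44 without replicates 2 and 3. The other probe set of Dnajb1 was also highest in wild-type replicate 2, at 10.15. Next there came transgenic replicate 2, at 9.79, above transgenic replicate 3 at 9.68. The group difference of that probe set was 0.41, and -0.23 without transgenic replicates 2 and 3.

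Hspb1, the small heat shock protein HSP27 that stabilises actin and is induced by HSF1, ranged over 0.54. The median range of all genes was 1.24 over 8 arrays and 0.50 without transgenic replicates 2 and 3. Hspb1 ranged over 0.54 in that setting too. Its values were 13.81, 14.13, 13.74 and 14.15 in transgenic replicates 1 to 4 and 14.26, 14.04, 13.99 and 13.72 in wild type. Neither of the hearts with the most Hspa1b stood out for Hspb1. The difference was -0.04 (SE 0.18, interval -0.46 to 0.38; limma adjusted p = 0.930).

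Hsp90aa1, the stress-responsive cytosolic HSP90, was low in a single heart. It read 12.55, 10.54, 13.09 and 13.05 in transgenic replicates 1 to 4 and 12.70, 13.20, 12.83 and 12.82 in wild-type replicates 1 to 4. Transgenic replicate 2 had a deviation of -2.29 from the median of the other 7 arrays, and 2 further probe sets of the gene were also lowest there, at 9.07 and 10.19. In that array 31.0% of all genes had their lowest value. The other 7 hearts spanned 12.55 to 13.20, with wild-type replicate 2 and transgenic replicate 3 on top. Group means were 12.31 ± 1.20 and 12.89 ± 0.22 (SD, n = 4 each), and the difference of -0.58 (SE 0.53; limma adjusted p = 0.813; exact permutation p = 0.514) became 0.011 without transgenic replicate 2.

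**Figure D1:**
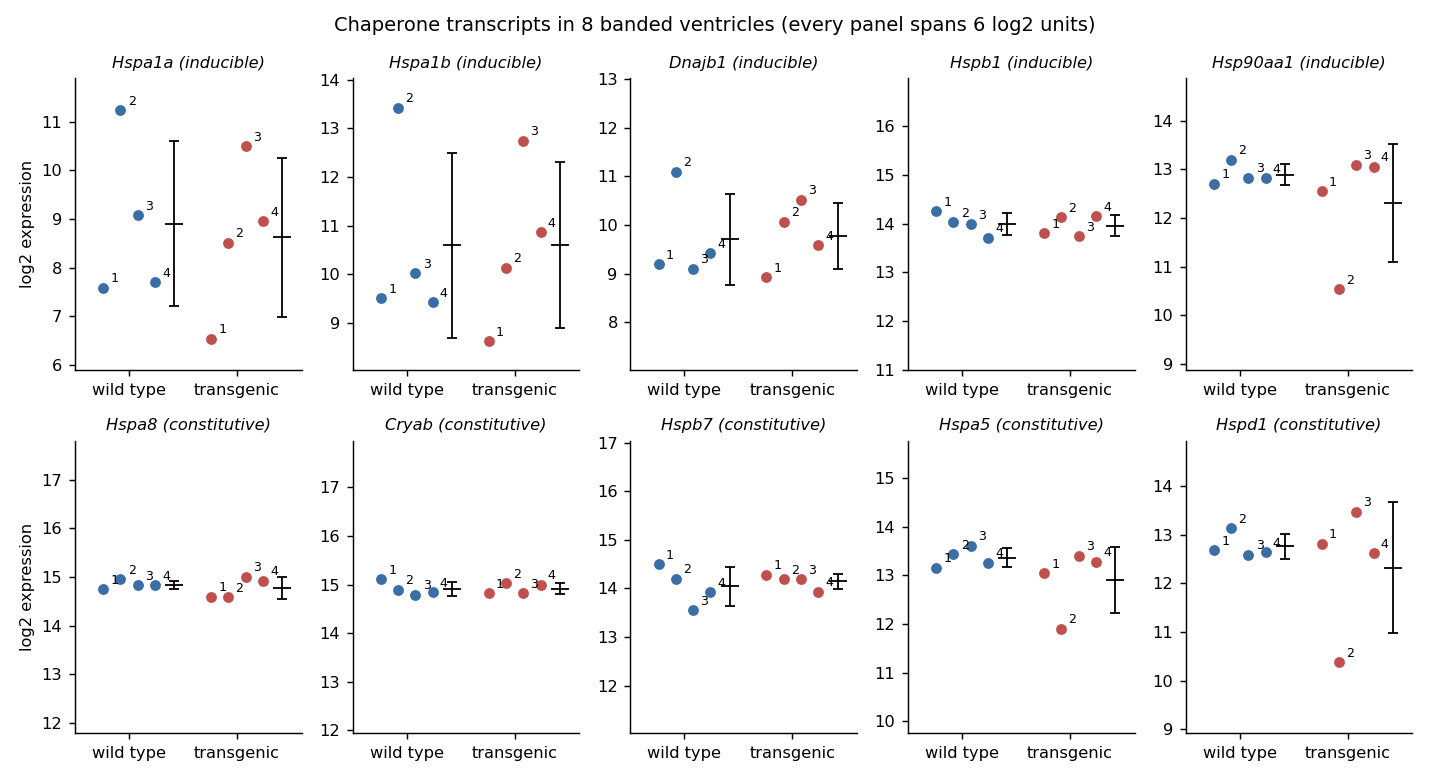
Log2 expression of each chaperone gene (y axis, 6 log2 units in every panel) in wild-type (blue) and transgenic (red) hearts; numbers are replicates, and the black bars beside the points are mean and SD over 4 arrays. Hspa1a and Hspa1b spread over more than 4 log2 units in 8 hearts, with wild-type replicate 2 and transgenic replicate 3 highest. The kept probe sets of Cryab and Hspa8 stay within 0.42.

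Among the constitutive members, the kept probe sets of Hspa8 and Cryab had the smallest ranges across hearts, and that of Hspb7 ranged over 0.95. Hspa8, the HSC70 that folds new proteins in unstressed cells, read 14.59, 14.58, 15.01 and 14.93 in transgenic replicates 1 to 4 and 14.75, 14.96, 14.84 and 14.84 in wild type. The same hearts that led for Hspa1b led for Hspa8, at 15.01 and 14.96, but on a total range of only 0.42. Its difference was -0.07 (SE 0.17, interval -0.44 to 0.31; limma adjusted p = 0.889). Another probe set of Hspa8, at a much lower reading, ranged over 2.45 and was highest in wild-type replicate 2 at 8.51.

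Cryab, alpha-B-crystallin, a small heat shock protein that shields desmin and titin, gave 14.82, 15.03, 14.82 and 14.99 in transgenic replicates 1 to 4 and 15.11, 14.90, 14.80 and 14.84 in wild type. By this kept probe set the hearts differed by at most 0.31, and the groups by 0.0057 (SE 0.15, interval -0.34 to 0.35, limma adjusted p = 0.992). Another probe set of Cryab, at a similar level, ranged over 0.52 and had a group difference of 0.10. Cryab and Hspb1 followed each other over the 8 arrays (r = 0.849) more closely than either followed Hspa1b (r of -0.120 and -0.012).

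Hspb7, a small heat shock protein of heart muscle that binds sarcomeric filaments, read 14.29, 14.19, 14.19 and 13.93 in transgenic replicates 1 to 4. Wild-type replicates 1 to 4 gave 14.50, 14.20, 13.56 and 13.92, which holds both the highest and the lowest Hspb7 value. The difference was 0.11 (SE 0.22, interval -0.40 to 0.62; limma adjusted p = 0.871). Other probe sets of Hspb7, at similar levels, ranged over only 0.52 and 0.26. Wild-type replicate 3 was lowest in the former, at 13.76, but not in the latter, at 14.02.

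The kept probe sets of the organelle chaperones were lowest in transgenic replicate 2. In that array 4 of the 10 members had their lowest value, beside 31.0% of all genes. Hspa5, or BiP, the HSP70 of the endoplasmic reticulum, read 13.04, 11.91, 13.41 and 13.28 in transgenic replicates 1 to 4 and 13.15, 13.43, 13.61 and 13.26 in wild-type replicates 1 to 4. Transgenic replicate 2 had a deviation of -1.37 from the median of the others, and the remaining hearts spanned 13.04 to 13.61. For Hspa5 the groups averaged 12.91 ± 0.68 and 13.37 ± 0.20 (SD over 4 arrays), and transgenic minus wild type was -0.46 (SE 0.33, interval -1.20 to 0.29; limma adjusted p = 0.813; exact permutation p = 0.229), and -0.12 without transgenic replicate 2. Another probe set of Hspa5 was also lowest in that array, at 11.70 against 12.92 to 13.62 in the others. The remaining one, at a lower reading, was not low in that array, at 7.32 against 6.86 to 7.38 in the others.

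Hspd1, or HSP60, the chaperonin of the mitochondrial matrix, read 12.81, 10.38, 13.47 and 12.62 in transgenic replicates 1 to 4 and 12.68, 13.13, 12.58 and 12.64 in wild-type replicates 1 to 4. The deviation of transgenic replicate 2 from the median of the others was -2.30, and transgenic replicate 3 and wild-type replicate 2 were highest. The difference of -0.44 (SE 0.59, interval -1.78 to 0.90; limma adjusted p = 0.820) became 0.21 without transgenic replicate 2.

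Array quality values were set beside the low readings of transgenic replicate 2. The 3′ minus 5′ reading of the Gapdh control probe sets was -0.27 there and between -0.28 and -0.11 in the other arrays, and that of Actb was 0.62, the lowest of a range up to 1.21. In that array the mean deviation of the ventricular muscle markers from wild type was -0.40, with a log2 summed level of 17.83 to 18.20 over the transgenic and 18.11 to 18.14 over the wild-type arrays. There, 5 macrophage markers averaged 1.29 above the wild-type mean (log2 summed level 10.72 to 12.83 over the transgenic and 11.79 to 12.34 over the wild-type arrays). Atrial, endothelial, smooth muscle and erythroid markers had mean deviations of 0.73, 0.69, 0.67 and 0.63 there, and fibroblast markers 0.019. Their part in the chaperone readings was not tested.

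**Figure D2:**
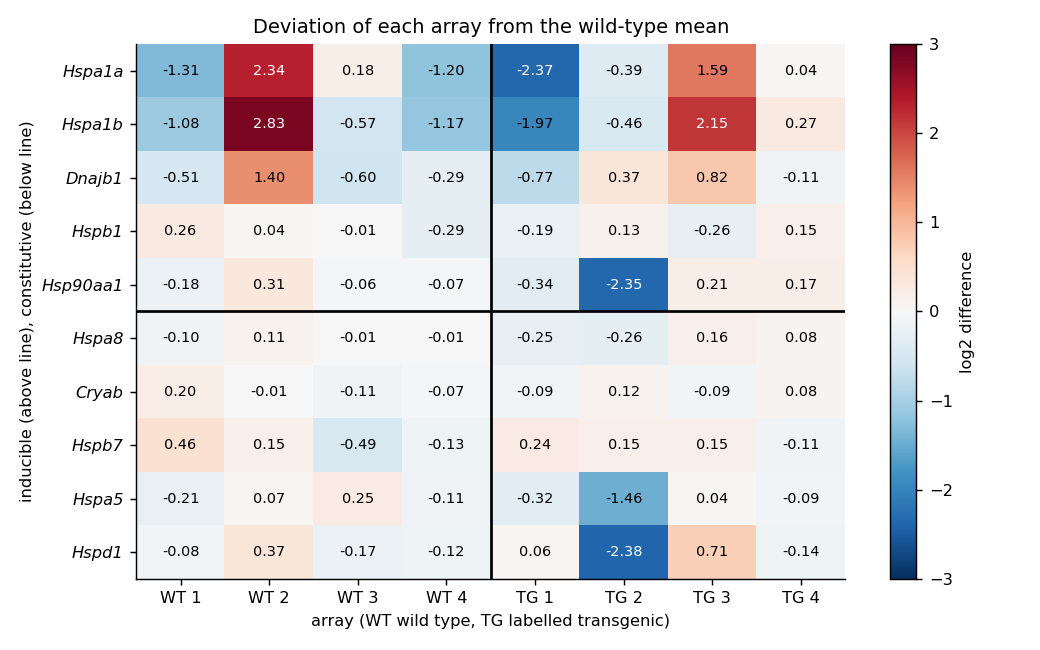
Deviation of each array (columns) from the wild-type mean of each gene (rows) on the log2 scale, red above and blue below; the black lines part inducible from constitutive members and wild-type from transgenic arrays. Wild-type replicate 2 and transgenic replicate 3 stand high for Hspa1a, Hspa1b and Dnajb1, and transgenic replicate 2 stands low for Hsp90aa1, Hspa5 and Hspd1, at -2.35, -1.46 and -2.38.

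Across the comparison, 0 of the 10 members passed the test between transgenic and wild-type hearts. By limma with Benjamini-Hochberg adjustment at 0.05, 0 of 9607 genes passed (0%). At an unadjusted p under 0.05 there were 0 members, against 153 genes (1.59%). In none of the 10 did the 4 transgenic values lie all on one side of the 4 wild-type values, whereas this held for 238 genes (2.48%). The mean was higher in transgenic hearts for 3 members and lower for 7, with a median difference of -0.05, beside 0.06 for all genes tested. The exact permutation p of the members ran from 0.229 for Hspa5 to 1.00 for Hspa1b.

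Separated by role, the median difference was -0.04 for the inducible and -0.07 for the constitutive members over all 8 arrays, and single arrays moved these values. The medians were 0.50 and -0.028 without wild-type replicate 2, -0.72 and -0.14 without transgenic replicate 3, and -0.44 and -0.041 without transgenic replicates 2 and 3. Averaged over the 5 inducible genes, deviations from the wild-type mean were -1.13, -0.54, 0.90 and 0.10 in transgenic replicates 1 to 4 and -0.57, 1.38, -0.21 and -0.60 in wild-type replicates 1 to 4. Over the 5 constitutive genes these averages were -0.07, -0.77, 0.20 and -0.03 in transgenic and 0.05, 0.14, -0.11 and -0.09 in wild-type hearts. The SD of the inducible average was 0.94 between wild-type and 0.87 between transgenic hearts, and that of the constitutive average 0.12 and 0.42. By the kept probe sets, the inducible spread between wild-type hearts came mainly from Hspa1a, Hspa1b and Dnajb1. The wild-type SDs of Hspb1 and Hsp90aa1 there, 0.22 each, were like those of Hspa5 (0.20) and Hspd1 (0.25). Further Hsp90aa1 probe sets that passed the level filter had larger wild-type SDs, of 0.44 and 0.66. The inducible average minus the constitutive one differed by 0.0036 between groups (0.42 without wild-type replicate 2 and -0.46 without transgenic replicates 2 and 3), with SDs of 0.75 and 0.86 over the transgenic and wild-type hearts. Without transgenic replicates 2 and 3, the differences of the other members were -0.022 for Hspb1, -0.088 for Hsp90aa1, -0.083 for Hspa8, -0.0008 for Cryab, 0.066 for Hspb7, -0.21 for Hspa5 and -0.041 for Hspd1.

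**Figure D3:**
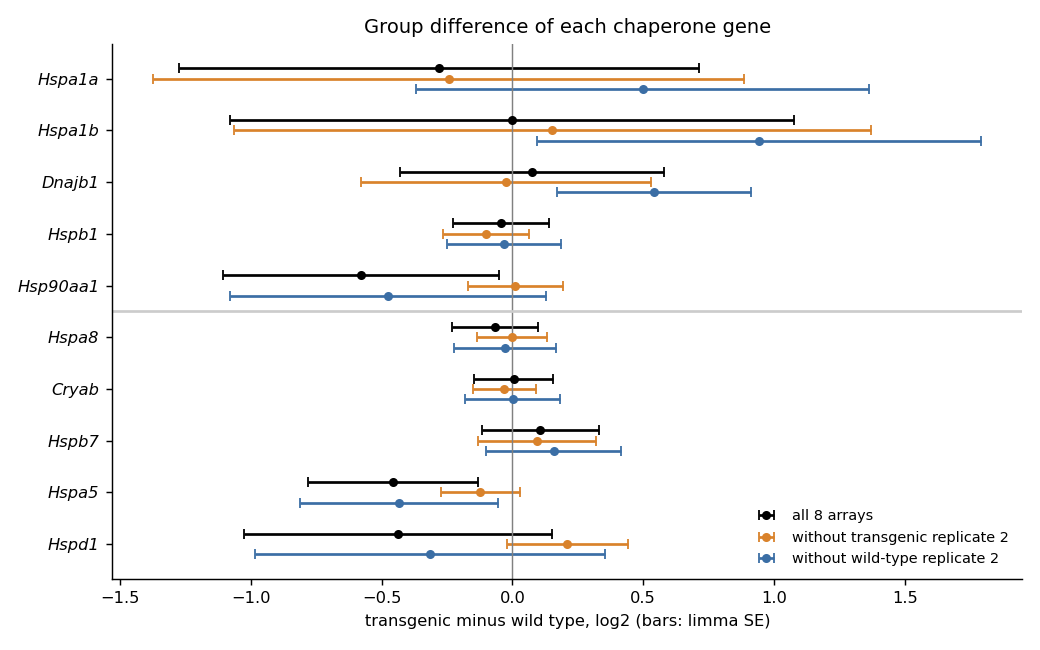
Transgenic minus wild-type difference of each gene on the log2 scale (x axis) with the limma SE as bars, over all 8 arrays (black), without transgenic replicate 2 (orange) and without wild-type replicate 2 (blue). The differences of Hsp90aa1 and Hspd1 move to 0.011 and 0.21 without transgenic replicate 2, and that of Hspb1 runs from -0.10 to -0.032 over the 3 settings.

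The inducible HSP70 genes had some of the widest spreads among wild-type hearts. Over the 4 wild-type arrays the SD of Hspa1b, 1.90, was the 3rd largest of 9607 genes, and that of Hspa1a, 1.70, the 4th largest. Only S100a8 and S100a9, which encode calprotectin of neutrophils, were above them, at 2.07 and 2.04. The median SD of all genes was 0.19. The Hspa1b value rested on wild-type replicate 2, at 13.42 against 9.43 to 10.02 in the other 3 hearts. Over the transgenic arrays the SDs of Hspa1b and Hspa1a, 1.71 and 1.63, ranked 253rd and 314th of all genes, whose median SD there was 0.49. Among wild-type hearts Dnajb1, at 0.94, ranked 55th, while the kept probe sets of Hsp90aa1 and Hspb1, at 0.22 each, ranked 3921st and 3687th. Further Hsp90aa1 probe sets that passed the level filter had wild-type SDs of 0.44 and 0.66, so its spread depended on the probe set. The other probe set of Hspb1 had 0.21, so Hspb1 did not share the wide spread. By the kept probe sets, Hspb7 ranked highest of the constitutive members, at 951 with an SD of 0.40, and Hspa8 lowest, at 8388 with 0.09. Other probe sets of Hspb7 had wild-type SDs of 0.12 and 0.22, and those of Hspa8 from 0.17 to 0.85.

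**Figure D4:**
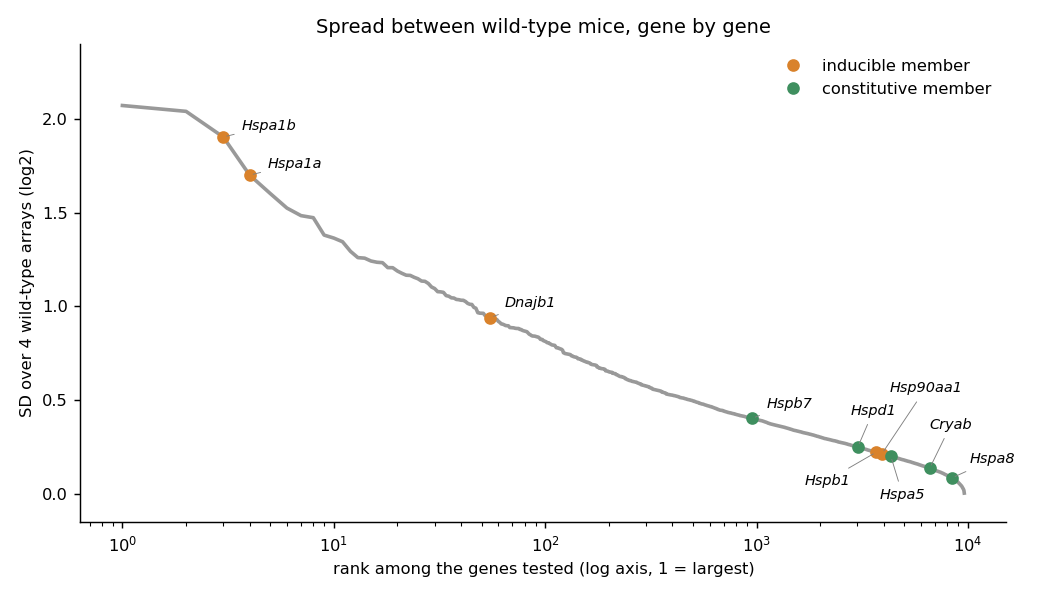
SD over the 4 wild-type arrays (y axis, log2) against the rank of that SD among 9607 genes (x axis, log scale, 1 is largest), with the grey line for all genes, orange points for inducible and green points for constitutive members. Hspa1b and Hspa1a hold ranks 3 and 4, Dnajb1 rank 55, and the other 7 members rank 951 or lower.

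By the kept probe sets, Hspa1b was highest in wild-type replicate 2 and transgenic replicate 3, and the same pair was highest for 5 of the other 9 members, namely Hspa1a, Dnajb1, Hsp90aa1, Hspa8 and Hspd1. For the other probe set of Dnajb1 and the low-reading one of Hspa8, wild-type replicate 2 was highest but transgenic replicate 3 was not next. Another probe set of Hspa5 did have this pair on top. Among all genes tested, 357 (3.72%) had that pair on top. Over the 8 arrays, which share their normalization, Hspa1b had r of 0.969 with Hspa1a, 0.925 with Dnajb1 and 0.761 with Hspa8. Leaving out the 2 hearts farthest from the Hspa1b median, wild-type replicate 2 and transgenic replicate 3, these r were 0.916, 0.620 and 0.576, so the likeness of Dnajb1 and Hspa8 rested in part on those hearts. With Hspd1 the r was 0.354 over 8 arrays, 0.758 without transgenic replicate 2 and -0.303 without the 2 high hearts. With Hsp90aa1 the r was 0.341 over 8 arrays, 0.937 without transgenic replicate 2 and -0.068 without the 2 high hearts. Transgenic replicate 2, where both genes were lowest, was still among the arrays left without the high hearts. What the likeness of both genes to Hspa1b rested on is therefore not settled. Cell type markers did not take 1 form in the 2 high hearts. Fibroblast markers had a mean deviation of -1.46 from wild type for transgenic replicate 3 and of -0.091 for wild-type replicate 2 (log2 summed level of the 5 markers 14.31 to 16.01 over transgenic and 15.81 to 16.03 over wild-type arrays). For macrophage markers these deviations were -1.30 and 0.025. Their part in the chaperone levels was not tested.

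Other chaperone genes were read from 7 lists of 85 genes, of which 77 were tested. None of the 77 passed over all genes (limma adjusted p of 0.813 or more), and 1, Dnaja3, had an unadjusted p under 0.05, where 1.59% of all genes did. The groups did not overlap for 2 of the 77, beside 2.48% of all genes, so both counts are near the background. Dnajb4, an HSP40 of muscle, was lower in all 4 transgenic hearts, with a difference of -0.69 (SE 0.48) that was -0.14 without transgenic replicate 2. Trap1, the mitochondrial HSP90, was higher in all 4, with a difference of 0.31 (SE 0.19) and 0.16 without that replicate.

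The list of HSP70, HSP90, HSP110 and DNAJ genes had 4 of 17 tested members higher and 13 lower, with a median of -0.23 that was 0.086 without transgenic replicate 2. In that array 12 of the 17 had their lowest value, beside 31.0% of all genes. Hspa13 differed by -0.74 (-0.25 without transgenic replicate 2) and Dnajb2 by 0.22 (0.20 without it), with Dnajb4 completing the 3 smallest p of the list. The co-chaperone list had 9 of 15 higher and a median of 0.13, with Bag2 at 0.35, Cdc37 at 0.29 and the ubiquitin ligase Stub1 at 0.22. Without transgenic replicate 2 these were 0.12, 0.090 and 0.10. The chaperonin CCT, which folds actin and tubulin, had 4 of 8 higher and a median of -0.02, with Cct8 at -0.36, Cct7 at 0.28 and Cct3 at 0.19, which were -0.092, 0.13 and 0.075 without that replicate.

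The list for the compartment of Hspa5, endoplasmic reticulum chaperones and genes of the unfolded protein response, had 12 of 19 tested members lower, with a median of -0.12. Its members with the smallest p were Pdia3, a disulfide isomerase, at -0.36, Dnajc3 at -0.96 and Hsp90b1, or GRP94, at -0.66. They became -0.22, -0.21 and -0.13 without transgenic replicate 2. Mitochondrial chaperones and proteases, the compartment of Hspd1, were higher for 7 of 11, with a median of 0.14, Clpp at 0.49 (0.29 without transgenic replicate 2) and Dnaja3 at 0.43 (0.36 without it, limma adjusted p = 0.813). Other genes named Hspb were higher for 4 of 5 tested, beside 5478 of all 9607 genes. Hspb3 differed by 0.37, Hspb2, the neighbour of Cryab, by 0.36 and Hspb11 by -0.22 (0.39, 0.11 and -0.095 without transgenic replicate 2). Of HSF1 and the genes listed with it, only Hsbp1 and Hspbp1 were tested. They differed by 0.17 and 0.37 (0.050 and 0.042 without transgenic replicate 2). Hsf2 and Hsf4 did not pass the level filter, and Hsf1 and Atf1 had no probe set of a single symbol.

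Further genes with the pattern of Hspa1b were picked from these lists after their values were seen. The pair of wild-type replicate 2 and transgenic replicate 3 was highest for 14 of the 77 tested genes (18.2%), 7 of them co-chaperones. Among all genes the share was 3.72%. Hsph1, the HSP110 that recharges HSP70, read 11.60 and 11.56 in these hearts and 8.65 to 10.81 in the others. Dnaja1, an HSP40, read 12.49 and 12.21 there and at most 11.35 elsewhere. Chordc1, an HSP90 partner, read 10.82 and 10.95 there and at most 10.06 elsewhere, and Hspe1, the co-chaperonin of Hspd1, read 12.68 and 13.09 there and at most 12.10 elsewhere. In the list of other genes named Hspb this held for 0 of 5 genes.

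**Figure D5:**
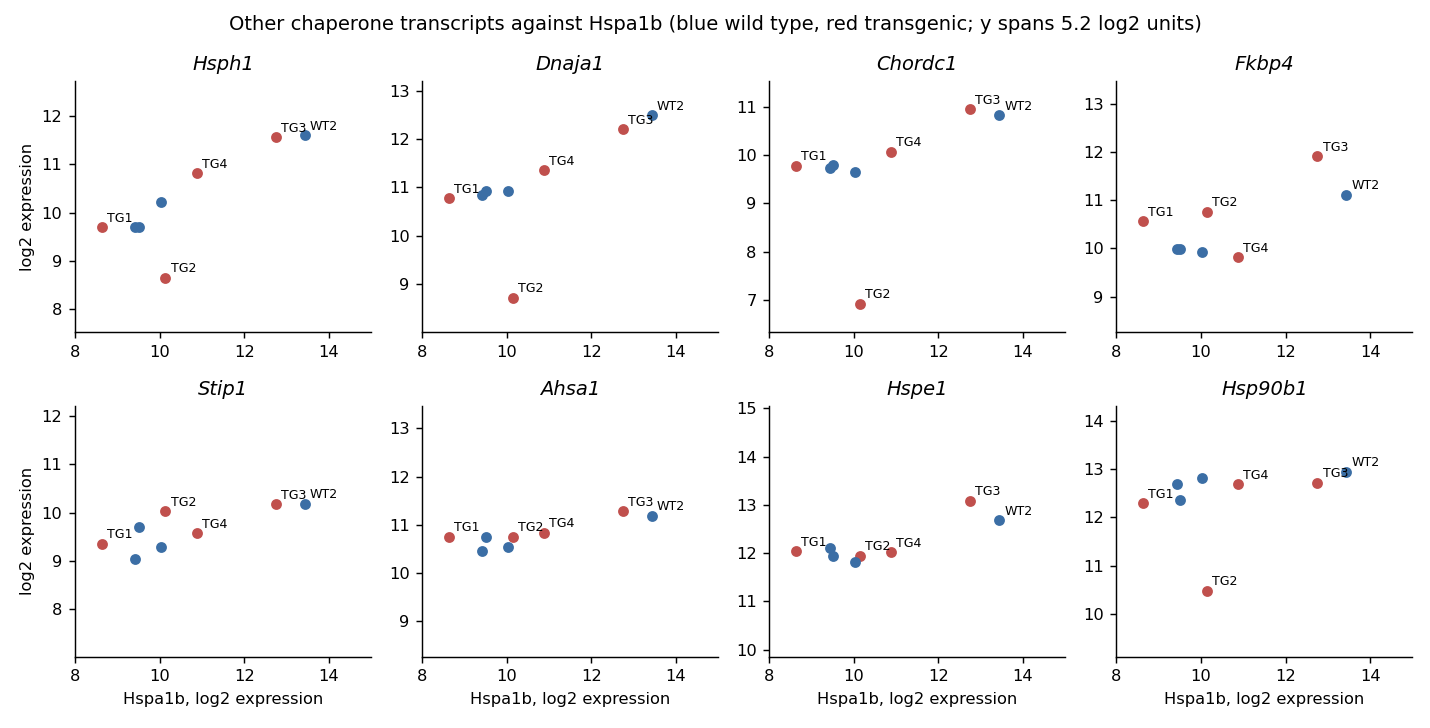
Log2 expression of 8 other chaperone genes (y axes, 5.2 log2 units each) against Hspa1b (x axes, log2) in wild-type (blue) and transgenic (red) hearts, with TG and WT labels for single replicates. Hsph1, Dnaja1, Chordc1, Fkbp4, Stip1, Ahsa1 and Hspe1 are highest in the 2 hearts with the most Hspa1b, 1 of each group. They were picked for this pattern after their values were seen, from the 14 of 77 tested list genes that had it. Hsp90b1 does not have both hearts on top.

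Among all genes tested, those most like the inducible and the constitutive member with the largest limma statistic were looked up over the 8 arrays. For Hsp90aa1 they were Kat6a, Zfx and Ahsa2 (r of 0.995, 0.994 and 0.993), and for Hspa5 they were Zkscan1, Epc1 and Hsp90b1 (r of 0.989, 0.986 and 0.985). Without transgenic replicates 2 and 3 other genes led both rankings, Fip1l1 for Hsp90aa1 (r = 0.996) and 9430015G10Rik for Hspa5 (r = 0.987). The 10 members were left out of these rankings. For Hspa1b, added after the data were seen, Wt1 led the other genes with r = 0.895, below the r of Hspa1a and Dnajb1, and 0.949 without the 2 high hearts, at levels of 4.85 to 6.77 near the filter. Ccdc117 followed with r = 0.880, but 0.031 without them.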

How the data were processed

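Total RNA of ventricles was measured on 8 one-colour arrays, 4 per group, with groups taken from the sample titles. The authors deposited log2 expression values per probe set, and the submitters' processing notes name GCRMA, which corrects background by probe base composition, normalizes by quantiles and summarizes probe sets; which version is not given. GCRMA draws dim probe sets to a common floor and aligns array distributions, so small shifts of many genes and differences near 16.11, the top of the scale, can be damped. Of 45101 probe sets, 34945 had 1 symbol and were no controls; 932 had several and 9211 none.

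Probe sets above a log2 value of 5 in at least 4 arrays were kept, with the highest mean per gene, which left 9607 genes. Transgenic minus wild type was tested by limma (3.58.1, under R 4.3.3; lmFit, eBayes without trend or block) with Benjamini-Hochberg adjustment over all genes at 0.05, after a check on simulated data. Exact permutation tests (70 arrangements) used scipy 1.17.1. Members and lists were chosen with earlier results of these data known. Named list genes are the 3 with the smallest p per list, unless said otherwise. Alternatives changed the filter, scaling, model and probe set rule and left out arrays. Precision is limited by the number of arrays, which have no depth of reads.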

Additional observations from a re-analysis of the deposited data

Results flagged for a closer look

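Wild-type replicate 2 stood far above the other 3 wild-type hearts for 2 of the members. Hspa1b was 13.42 there, and the gap to the next wild-type heart took up 0.851 of the whole wild-type range, above the 95% limit of Dixon's criterion for 4 samples. Dnajb1 was 11.10 there, with a gap of 0.844 of its range. In all, 28 groups of 4 values were examined in this way, and chance places about 1 in 20 beyond the limit.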

How the results depend on the processing

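Under all 18 alternatives 0 members passed. Over all genes 0 passed, except that array weights passed 1. Genes at an unadjusted limma p under 0.05 numbered 153, against 363 without a filter, 1529 with array weights (weight of transgenic replicate 2, 0.052) and 34 to 541 when single arrays were left out. Differences of members that turned sign were Cryab at -0.014 with arrays centred on their median, Dnajb1 at -0.50, Cryab at -0.031 and Hspd1 at 0.091 with array weights (which also moved Hspa1a to -1.65, Hspa1b to -1.19 and the inducible minus constitutive difference to -0.70), Hspa1b at 0.054 with the mean of its probe sets and at 0.11 without shared-probe sets, and Dnajb1 at -0.44 and Cryab at -0.0008 without transgenic replicates 2 and 3. When single arrays were left out in turn, the differences ran from -0.90 to 0.50 for Hspa1a, -0.72 to 0.94 for Hspa1b, -0.17 to 0.54 for Dnajb1, -0.14 to 0.043 for Hspb1, -0.84 to 0.011 for Hsp90aa1, -0.032 to 0.071 for Cryab, -0.055 to 0.26 for Hspb7 and -0.82 to 0.21 for Hspd1. Those of Hspa8 (-0.14 to -0.0012) and Hspa5 (-0.62 to -0.12) kept their sign. The limma adjusted p of a member over its alternatives was never below 0.302. With the replicate number as a block, 0 members passed and 147 genes had an unadjusted limma p under 0.05. The same-numbered arrays deviated together with r of 0.30, -0.0056, -0.33 and 0.20. These r do not settle whether the numbers pair the mice, since genes are not independent and transgenic replicate 2 enters the transgenic mean. Without probe sets of the suffixes _x_at, _s_at and _a_at, Hspb1, Cryab and Hspa5 had no value.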
